A study of Mus musculus with 2 samples.

Results

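The matrix metalloproteinase (Mmp), Adam, Adamts and Timp genes encode the metal-dependent proteinases that cut the extracellular matrix and cell-surface proteins, together with their tissue inhibitors. They were taken by gene symbol, as every symbol that starts with Mmp or Adam and a digit or with Adamts, plus Timp1 to Timp4, without the Notch sheddase genes Adam10 and Adam17. The rule found 82 of the 23562 genes in the data, namely 23 Mmp, 31 Adam, 24 Adamts and Adamts-like and 4 Timp genes.

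RNA had been sequenced from cultured mouse mammary tumour cells of the line AS0574 in 2 forms, with 1 library each. The Rnf8-null cells carried the genotype Rnf8-/-;Trp53Δ/Δ, and the Rnf8-complemented cells were of that same genotype with Rnf8 put back. Both forms thus lacked Rnf8 and Trp53 at their own loci by the labels. Rnf8 encodes a ubiquitin ligase of the DNA break response and Trp53 the tumour suppressor p53. Whether the complemented cells were 1 clone or a pool is not given in the sources used here. The comparison asked how tumour cells without Rnf8 differ from the same cells with Rnf8 put back.

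Mmps and Adamts proteins are mostly secreted as inactive precursors with a prodomain that must be removed, often by furin-like convertases, plasmin or another Mmp. Membrane-type Mmps and most Adams stay on the cell surface, where many Adams shed the outer parts of growth factors and receptors. Timps bind and block active Mmps, and Timp3, which sticks to the matrix, also blocks several Adams and the aggrecan-cutting Adamts enzymes. In the mammary gland these enzymes are known for remodelling the matrix around ducts and for tumour invasion.

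Counted reads totalled 57263401 for Rnf8-null cells and 48607808 for Rnf8-complemented cells. Rnf8 itself was read at 10.5 RPKM (reads scaled to gene length and to the library total) in Rnf8-null and 596 RPKM in Rnf8-complemented cells, and gene-level reads do not check the deletion. Because there were no replicates, no difference was tested, no p-value was computed, and whether a difference exceeds the spread between cultures is not known. Intervals in brackets after a ratio are exact 95% limits on reads per library total, and cover counting error only. Of 8 epithelial markers, 8 were higher in Rnf8-null cells (summed level 5580 RPKM, against 1.19 RPKM in Rnf8-complemented cells, where Krt5 had 0 reads). Of 10 mesenchymal and fibroblast markers, 5 passed the filter below and all 5 were lower in Rnf8-null cells (summed level 1.70 RPKM with Lum at 0 reads, against 216 RPKM in Rnf8-complemented cells). Col3a1 made up 64.7% of that 216 RPKM. Of the markers that did not pass, Pdgfra ran the other way, with 54 reads in Rnf8-null and 27 in Rnf8-complemented cells, while Col1a2, Lum, Thy1 and Prrx1 had fewer in Rnf8-null cells. All 8 epithelial markers and 4 of the 5 mesenchymal and fibroblast markers called lower passed that filter through 1 library alone, so the direction of their calls was set by it. Of all genes that passed it, 14.8% were called higher and 15.9% lower in Rnf8-null cells. The part of that marker difference in the results on the proteinase genes was not tested, and fewer cells of a type cannot be told from less RNA per cell.

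Members were unevenly expressed. In Rnf8-null cells 31 members reached 1 RPKM and 17 reached 10 RPKM, and in Rnf8-complemented cells 26 reached 1 RPKM and 8 reached 10 RPKM. At least 1 RPKM was reached in either library by 36 members, in both by 21 and in neither by 46, and 8 members had 0 reads in both. A mean of at least 1 RPKM over both libraries was required of a gene before it was counted as higher or lower, and 34 of the 82 members met it. A gene was then called higher where its log2(RPKM + 1) in Rnf8-null cells exceeded that in Rnf8-complemented cells by 1 or more, and lower where it fell short by 1 or more. This is referred to as the 2-fold rule, and with 1 RPKM added it understates the difference of low genes.

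Of the 34 members, 13 were called higher in Rnf8-null cells, 6 lower and 15 lay within the 2-fold rule. Of all 12609 genes that met the filter, 14.8% were called higher and 15.9% lower, so the 38.2% of members called higher was above the background share and the 17.6% called lower was near it. Of the 34, 13 were under 1 RPKM in 1 library and so met the filter through the other library alone, as did 1857 of the 12609 genes. Among the members, Timp3, Mmp10, Mmp13, Mmp15, Mmp1b, Adam5, Adam8 and Adamtsl5 met it through the Rnf8-null library and were called higher. Adamts2, Adamtsl3 and Mmp9 met it through the Rnf8-complemented library and were called lower. The direction of these calls was set by the filter. Adam1a and Adamts3 lay within the 2-fold rule, and for such genes a difference is partly set by the filter. The excess of higher calls over the background share thus cannot be told apart from the filter. The members' median log2 difference was 0.07, beside -0.17 for all genes that met the filter. Over all 82 members the median was -0.0004, beside -0.0022 over all 23562 genes. The counts and medians describe these libraries and are no test of the families. Of the 6 lower calls, 3 (Adamts2, Adamts6 and Mmp9) depended on low levels and were lost when 5 RPKM in place of 1 RPKM was added. Timp1, Mmp19 and Adamtsl3 stayed lower. When a mean of at least 5 RPKM was required, 1 lower call was left (Timp1), because the others no longer met the filter, and the members' median was 0.34. Of all genes, 8.05% were called lower in the first case and 14.1% in the second.

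**Figure D1:**
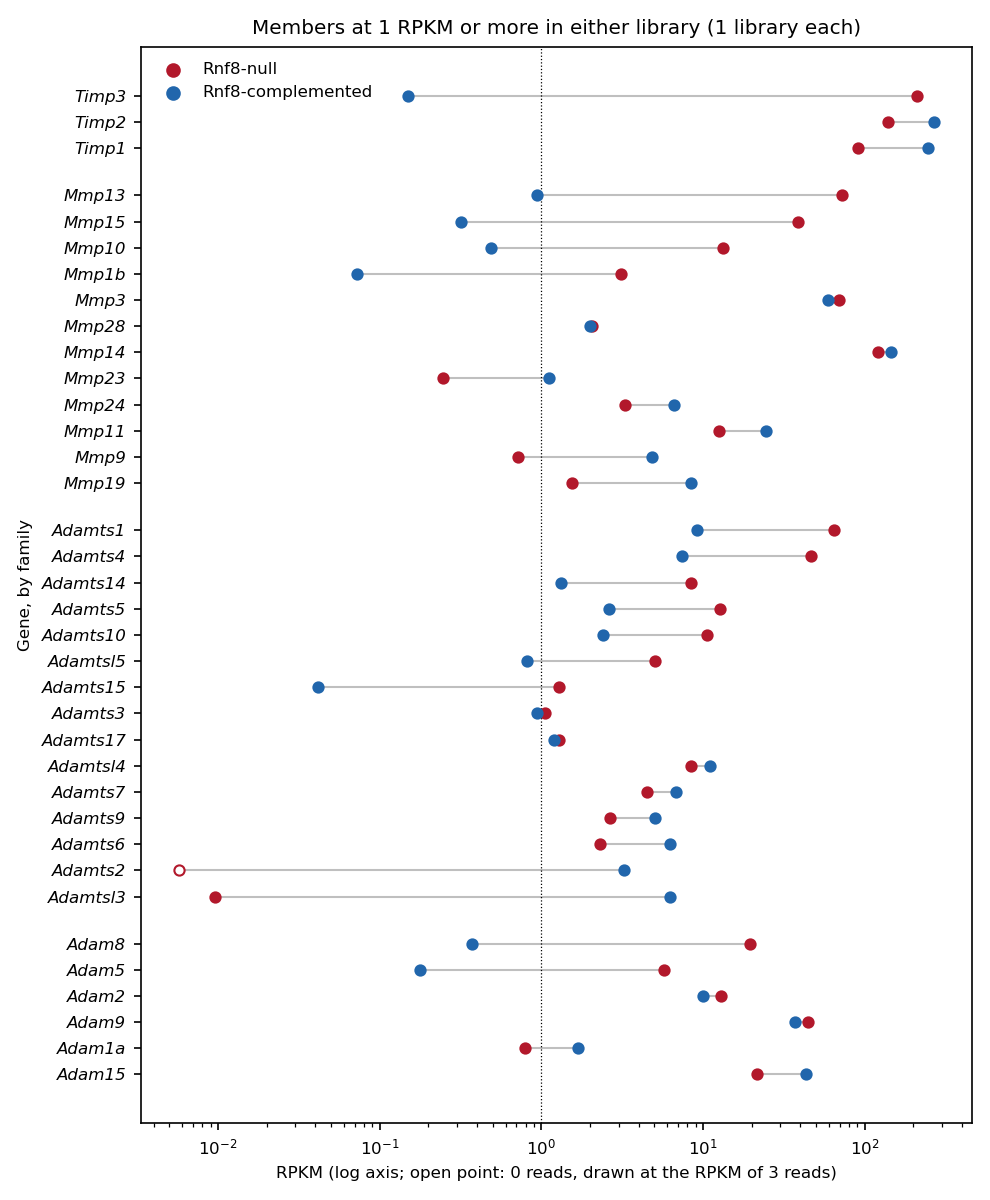
RPKM (log axis) of the 36 members that reached 1 RPKM in either library, with red points for the Rnf8-null and blue points for the Rnf8-complemented library, by family and by log2 difference within it. Timp3, Mmp13, Mmp15 and Adam8 lie far to the right in Rnf8-null cells, while Adamts2 (open point, 0 reads, drawn at the level of 3 reads) and Adamtsl3 lie far to the left.

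Timp1 and Timp2 were among the most abundant members in both libraries, and Timp3 was among them in Rnf8-null cells only. Timp3 (chromosome 10, 86300372 to 86349506 of GRCm38) was read at 211 RPKM (56639 reads) in Rnf8-null cells and at 0.149 RPKM (34 reads) in Rnf8-complemented cells. It was the highest member in Rnf8-null cells and far below 1 RPKM in Rnf8-complemented cells. The ratio was 1414 (1012 to 2042), and by log2 difference (7.53) Timp3 ranked 21 of the 12609 genes.

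Timp1 (chromosome X, 20870166 to 20874735), an inhibitor of most secreted Mmps, stood at 90.5 RPKM in Rnf8-null cells and 246 RPKM in Rnf8-complemented cells, 2.72-fold lower in the null (2.64 to 2.81). Timp2 (chromosome 11, 118301069 to 118355740), which also helps Mmp14 to activate Mmp2, stood at 138 RPKM in Rnf8-null and 269 RPKM in Rnf8-complemented cells. That was 1.94-fold lower (1.92 to 1.97) and just within the 2-fold rule at a log2 difference of -0.95. Timp4 had 0 reads in Rnf8-null and 2 in Rnf8-complemented cells.

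Summed over the 4 genes, Timp levels came to 440 RPKM in Rnf8-null and 515 RPKM in Rnf8-complemented cells. Timp3 made up 48.0% of the sum in the null library, and Timp2 was the leading member of the complemented library with 52.1%. Timp1 and Timp3 lie on the opposite strand inside Syn1 and Syn3, and as strand use is not known, reads of each pair cannot be told apart. Syn3, with 1733 exon bases shared with Timp3 in the annotation, had 39621 reads in Rnf8-null and 35 in Rnf8-complemented cells, and Syn1, with 0 shared exon bases, had 5442 in Rnf8-null and 12783 in Rnf8-complemented cells, where Timp1 had 5278 reads in Rnf8-null and 12207 in Rnf8-complemented cells.

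**Figure D2:**
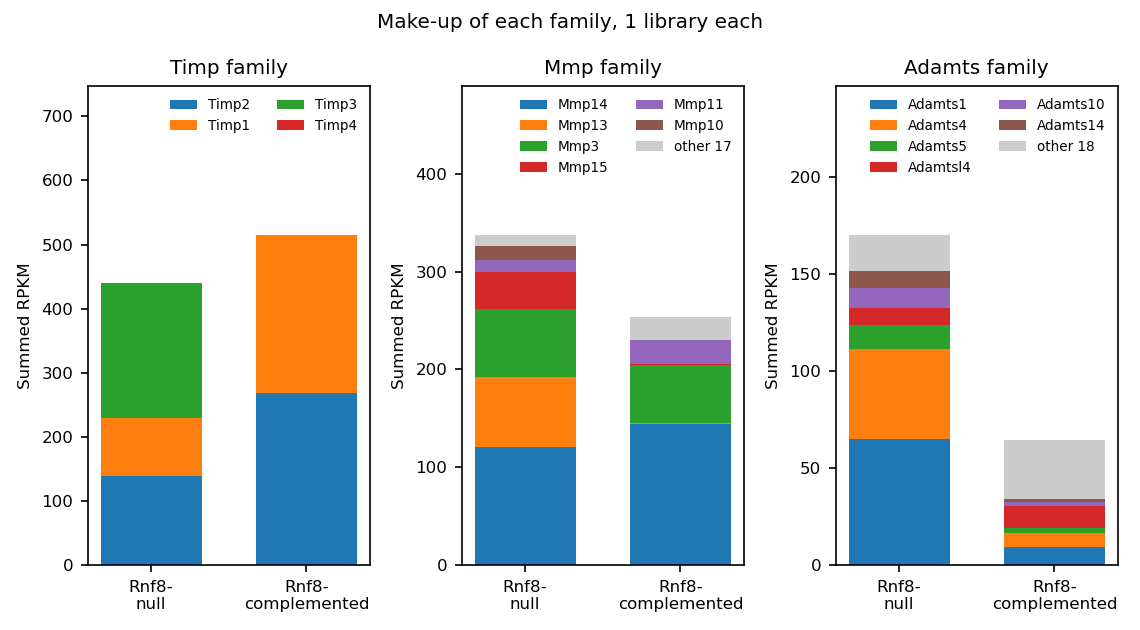
Summed RPKM of the Timp, Mmp and Adamts families in the Rnf8-null (left bar) and Rnf8-complemented library (right bar of each panel), with 1 colour per gene, grey for all remaining members and a separate vertical scale in each panel. The Timp bars are of similar height (440 RPKM in Rnf8-null and 515 RPKM in Rnf8-complemented cells) but Timp3 is visible only in the Rnf8-null bar, and the Adamts bars stand at 170 RPKM in Rnf8-null and 64.4 RPKM in Rnf8-complemented cells.

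The collagenases, which open the triple helix of fibrillar collagens, were read almost entirely in Rnf8-null cells. Mmp13 (chromosome 9, 7272514 to 7283331) was at 71.9 RPKM (11011 reads) in Rnf8-null and 0.938 RPKM (122 reads) in Rnf8-complemented cells, a ratio of 76.6 (64.1 to 92.3). Mmp1b, a rodent interstitial collagenase-like gene, was at 3.11 RPKM (356 reads) in Rnf8-null and 0.0721 RPKM (7 reads) in Rnf8-complemented cells, a ratio of 43.2 (20.7 to 108). Its close relative Mmp1a, which GENCODE gives as a polymorphic pseudogene, had 22 reads in Rnf8-null and 0 in Rnf8-complemented cells, where 3 reads would be 0.0305 RPKM. Mmp1a and Mmp1b can share reads, and their summed counts were 378 in Rnf8-null and 7 in Rnf8-complemented cells. Mmp8, the collagenase of neutrophils, had 0 reads in both.

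The stromelysins, which cut proteoglycans and laminin and activate other Mmps, differed among themselves. Mmp10 was at 13.3 RPKM (1320 reads) in Rnf8-null and 0.486 RPKM (41 reads) in Rnf8-complemented cells, a ratio of 27.3 (20.0 to 38.3). Mmp3, a close relative in the same gene cluster, was abundant in both libraries at 69.0 RPKM in Rnf8-null and 59.3 RPKM in Rnf8-complemented cells, a ratio of 1.16 (1.12 to 1.21). Mmp11, which furin activates inside the cell, stood at 12.6 RPKM in Rnf8-null and 24.6 RPKM in Rnf8-complemented cells, 1.95-fold lower (1.85 to 2.07) and within the 2-fold rule. Its exons overlap those of Chchd10 on the opposite strand by 155 bases, and Chchd10 had 1341 reads in Rnf8-null and 9 in Rnf8-complemented cells.

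Mmp13, Mmp1b, Mmp3 and Mmp10 belong to a cluster of 10 Mmp genes on chromosome 9, from 7272514 to 7699585, with no other protein-coding gene between them in GENCODE vM21. In map order these are Mmp13, Mmp12, Mmp1b, Mmp3, Mmp1a, Mmp10, Mmp8, Mmp27, Mmp20 and Mmp7. Mmp13, Mmp12, Mmp1b, Mmp3 and Mmp10 had at least 100 reads in either library, and of these Mmp3 alone exceeded 1 RPKM in Rnf8-complemented cells. Mmp12, the macrophage elastase, had 114 reads in Rnf8-null and 41 in Rnf8-complemented cells, and it shares 157 exon bases with Mmp1b on the opposite strand. Mmp7 (matrilysin, an epithelial Mmp) had 26 reads in Rnf8-null cells, Mmp27 had 2 and Mmp20, the enamel proteinase, 0. In Rnf8-complemented cells Mmp7 and Mmp27 had 0 reads and Mmp20 had 4.

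**Figure D3:**
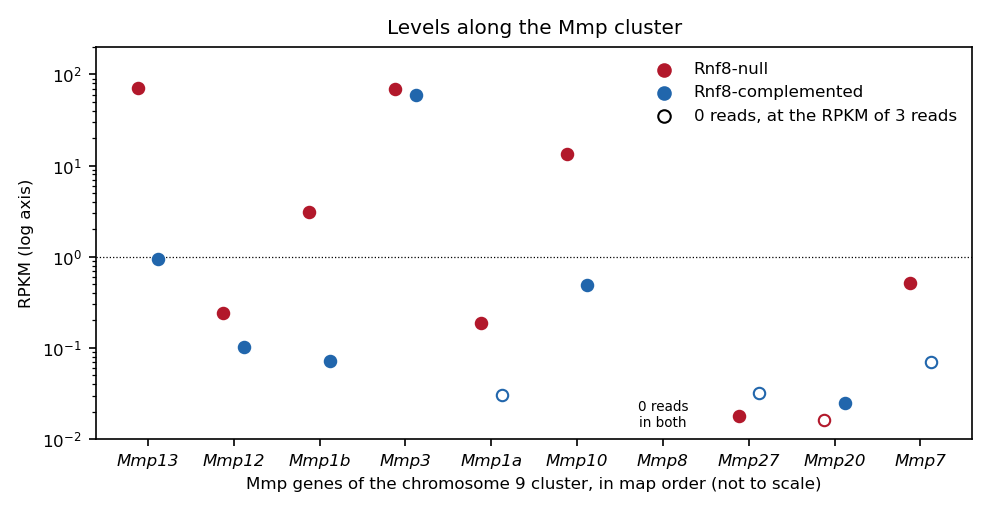
RPKM (log axis) of the 10 Mmp genes of the chromosome 9 cluster in map order, not to scale, with red points for the Rnf8-null and blue points for the Rnf8-complemented library and open points for 0 reads, drawn at the level of 3 reads. Mmp3 stands at 69.0 RPKM in Rnf8-null and 59.3 RPKM in Rnf8-complemented cells, whereas its neighbours Mmp13, Mmp1b and Mmp10 stand above 1 RPKM in the Rnf8-null library only.

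The promoters of these neighbours are shown because genes of 1 cluster differed in level. The 120 bases before each RefSeq start (GRCm38.p6) were searched for TGANTCA, a loose form of the AP-1 site core with any base in the middle. AP-1 is the Fos and Jun factor long known from collagenase and stromelysin promoters. The pattern reads the same on both strands, and its match in Mmp20 was TGAATCA, where the other cluster matches were TGAGTCA or TGACTCA. The same bases were also searched for TATAAA on both strands, and the 2 motifs do not overlap in the letters shown. Capitals mark TGANTCA, each sequence reads 5′ to 3′ on the gene's own strand, and Mmp8 is shown as the neighbour with 0 reads.
Mmp13: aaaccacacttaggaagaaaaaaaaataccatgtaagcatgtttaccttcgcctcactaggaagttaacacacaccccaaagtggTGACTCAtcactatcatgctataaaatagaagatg
Mmp1b: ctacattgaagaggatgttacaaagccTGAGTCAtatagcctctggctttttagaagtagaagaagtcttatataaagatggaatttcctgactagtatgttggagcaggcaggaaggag
Mmp3: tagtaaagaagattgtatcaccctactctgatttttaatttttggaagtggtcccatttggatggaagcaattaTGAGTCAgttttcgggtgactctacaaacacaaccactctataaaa
Mmp1a: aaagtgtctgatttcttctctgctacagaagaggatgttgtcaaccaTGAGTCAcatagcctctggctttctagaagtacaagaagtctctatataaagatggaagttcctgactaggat
Mmp10: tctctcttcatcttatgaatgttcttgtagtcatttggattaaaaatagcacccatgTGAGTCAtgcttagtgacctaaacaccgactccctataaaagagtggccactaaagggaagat
Mmp8: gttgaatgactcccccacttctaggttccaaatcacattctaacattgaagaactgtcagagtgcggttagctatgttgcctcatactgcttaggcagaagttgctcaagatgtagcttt
Mmp7: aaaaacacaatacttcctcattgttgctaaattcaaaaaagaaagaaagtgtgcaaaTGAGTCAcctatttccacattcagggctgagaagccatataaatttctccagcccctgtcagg
The windows lie at chr9:7272394-7272513, plus strand for Mmp13, chr9:7388027-7388146, minus strand for Mmp1b, chr9:7445702-7445821, plus strand for Mmp3, chr9:7464021-7464140, plus strand for Mmp1a, chr9:7502222-7502341, plus strand for Mmp10, chr9:7558309-7558428, plus strand for Mmp8 and chr9:7691970-7692089, plus strand for Mmp7, the first of 2 starts listed for that gene.

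The motif began 35 bases before the start in Mmp13, 93 in Mmp1b, 46 in Mmp3, 73 in Mmp1a and 63 in both Mmp10 and Mmp7, with 1 match in each. TATAAA or its complement began 16 bases before the start in Mmp13, 49 in Mmp1b, 7 in Mmp3, 28 in Mmp1a, 29 in Mmp10 and 26 in Mmp7. Neither motif was in the Mmp8 window. Of the starts not printed, that of Mmp20 held both motifs, with 0 reads in Rnf8-null and 4 in Rnf8-complemented cells. Mmp12, with 114 reads in Rnf8-null and 41 in Rnf8-complemented cells, held neither at its first start and TGANTCA alone at its second. Mmp27 and the second Mmp7 start held neither. Over the 12 starts listed for the cluster, 8 held TGANTCA and 7 held TATAAA, beside 3.41% and 6.34% of all 32851 promoters in the table. Among the 56 starts of the 51 members with an entry, 9 held TGANTCA (16.1%) and 11 held TATAAA (19.6%). These counts include the 8 and 7 starts of the cluster. Outside the cluster, Adam29 alone held TGANTCA, so the share above the background is that of the cluster and not of the families. The letters were present in Mmp3, read alike in both libraries, in Mmp13 and Mmp10, read mainly in Rnf8-null cells, and in Mmp1a and Mmp7, hardly read in either. A match is a description of the sequence and not evidence of a bound site.

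The membrane-type Mmps, which are anchored at the cell surface, held a member read alike in both libraries and a member that differed widely. Mmp14 (chromosome 14, 54431612 to 54445364), the activator of Mmp2, was the most abundant Mmp in both libraries at 120 RPKM in Rnf8-null and 145 RPKM in Rnf8-complemented cells, 1.20-fold lower (1.18 to 1.23). Mmp15 (chromosome 8, 95352268 to 95375080) stood at 38.4 RPKM (9419 reads) in Rnf8-null and 0.317 RPKM (66 reads) in Rnf8-complemented cells, a ratio of 121 (95.1 to 157). Mmp24 stood at 3.27 RPKM in Rnf8-null and 6.61 RPKM in Rnf8-complemented cells, 2.02-fold lower (1.85 to 2.20) yet within the 2-fold rule on the log2(RPKM + 1) scale, and shares 637 exon bases with BC029722 on the opposite strand. Mmp16, Mmp17 and Mmp25 had 3, 5 and 4 reads in Rnf8-null and 4, 15 and 4 in Rnf8-complemented cells.

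Both gelatinases, which cut denatured collagen and collagen of basement membranes, had more reads with Rnf8 put back. Mmp9 stood at 0.715 RPKM (130 reads) in Rnf8-null and 4.81 RPKM (742 reads) in Rnf8-complemented cells, 6.72-fold lower in the null (5.57 to 8.17). Mmp2, below the filter, had 22 reads in Rnf8-null and 74 in Rnf8-complemented cells. Mmp2 was thus at 0.126 RPKM in Rnf8-null and 0.501 RPKM in Rnf8-complemented cells, while Mmp14 and Timp2, which activate it, exceeded 100 RPKM in both.

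Mmp9, Mmp8 and Mmp12 are also genes of leukocytes. Of 9 leukocyte markers measured, 3 met the filter, of which Cd14 and S100a8 were higher in Rnf8-null cells and Cd68 lay within the 2-fold rule (summed level of the list 357 RPKM in Rnf8-null and 40.8 RPKM in Rnf8-complemented cells). Of all genes that met the filter, 14.8% were called higher and 15.9% lower. The pan-leukocyte marker Ptprc had 0 reads in Rnf8-null and 1 in Rnf8-complemented cells. Also below the filter, Lyz2 ran the other way, with 3 reads in Rnf8-null and 75 in Rnf8-complemented cells. Csf1r had 292 reads in Rnf8-null and 100 in Rnf8-complemented cells. None of 6 endothelial markers met the filter (summed level 0.296 RPKM in Rnf8-null cells, where Kdr and Tie1 had 0 reads, and 0.797 RPKM in Rnf8-complemented cells).

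Among the other Mmps, Mmp19, a proteinase of basement membrane proteins, stood at 1.55 RPKM in Rnf8-null and 8.38 RPKM in Rnf8-complemented cells, 5.41-fold lower (4.83 to 6.06). It shares 789 exon bases with Tmem198b on the opposite strand, which had 806 reads in Rnf8-null and 961 in Rnf8-complemented cells. Mmp28 (epilysin) was at 2.05 RPKM in Rnf8-null and 2.01 RPKM in Rnf8-complemented cells, a ratio of 1.02 (0.866 to 1.20). Mmp23, below the filter, had 22 reads in Rnf8-null and 84 in Rnf8-complemented cells, and Mmp21 had 2 in Rnf8-null and 1 in Rnf8-complemented cells. Of the 23 Mmp genes 11 met the filter, of which 4 were higher (Mmp10, Mmp13, Mmp15 and Mmp1b), 2 lower (Mmp9 and Mmp19) and 5 within the 2-fold rule. These are 36.4% higher and 18.2% lower, beside 14.8% and 15.9% of all genes, and 5 of the 11 met the filter through 1 library alone. These 5 were the 4 higher genes, through the Rnf8-null library, and Mmp9, through the Rnf8-complemented library. Their direction was set by the filter. The summed Mmp level was 338 RPKM in Rnf8-null and 254 RPKM in Rnf8-complemented cells, of which Mmp14 made up 35.6% in the null and 56.9% in the complemented library.

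The Adamts enzymes that cut the large proteoglycans aggrecan and versican (hyalectanases) had 3 of the 4 members that met the filter called higher in Rnf8-null cells, beside 14.8% of all genes. Adamts1 (chromosome 16, 85793827 to 85803113) stood at 64.9 RPKM in Rnf8-null and 9.15 RPKM in Rnf8-complemented cells, a ratio of 7.09 (6.78 to 7.42). Nearby on that chromosome, Adamts5 (chromosome 16, 85856173 to 85901828), a main aggrecanase of mouse cartilage, stood at 12.7 RPKM in Rnf8-null and 2.61 RPKM in Rnf8-complemented cells, a ratio of 4.86 (4.55 to 5.20). Adamts4 (chromosome 1, 171250421 to 171260637) stood at 46.2 RPKM in Rnf8-null and 7.38 RPKM in Rnf8-complemented cells, a ratio of 6.27 (5.94 to 6.61). Those 3 genes were above 1 RPKM in both libraries.

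Another hyalectanase pair that lies close together, Adamts8 and Adamts15 on chromosome 9, was low. Adamts15 stood at 1.28 RPKM (436 reads) in Rnf8-null and 0.0416 RPKM (12 reads) in Rnf8-complemented cells, and Adamts8 had 133 reads in Rnf8-null and 0 in Rnf8-complemented cells, where 3 reads would be 0.0170 RPKM. Both lay below the filter. Adamts9, which cuts versican, ran the other way at 2.64 RPKM in Rnf8-null and 5.05 RPKM in Rnf8-complemented cells, within the 2-fold rule. Adamts20 had 1 read in Rnf8-null and 10 in Rnf8-complemented cells. The 7 hyalectanase genes summed to 128 RPKM in Rnf8-null and 24.3 RPKM in Rnf8-complemented cells.

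The procollagen N-propeptidases, which trim the amino end of newly made procollagens, differed in opposite directions. Adamts2 (chromosome 11, 50602084 to 50807573) had 0 reads in Rnf8-null and 1437 reads (3.22 RPKM) in Rnf8-complemented cells. At this depth 3 reads of Adamts2 would be 0.00571 RPKM in the Rnf8-null library. Adamts14 stood at 8.44 RPKM in Rnf8-null and 1.32 RPKM in Rnf8-complemented cells, a ratio of 6.41 (5.73 to 7.20). Adamts3, which also processes the growth factor VEGF-C, stood at 1.06 RPKM in Rnf8-null and 0.945 RPKM in Rnf8-complemented cells, a ratio of 1.12 (0.972 to 1.29).

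Adamts10, linked to fibrillin fibres, stood at 10.6 RPKM in Rnf8-null and 2.39 RPKM in Rnf8-complemented cells, a ratio of 4.46 (4.16 to 4.77). Its closest relative Adamts6 differed in the opposite direction, at 2.29 RPKM in Rnf8-null and 6.24 RPKM in Rnf8-complemented cells, 2.72-fold lower (2.49 to 2.98). Adamts7, a proteinase of cartilage oligomeric matrix protein, was at 4.48 RPKM in Rnf8-null and 6.79 RPKM in Rnf8-complemented cells, and Adamts17 was at 1.28 RPKM in Rnf8-null and 1.19 RPKM in Rnf8-complemented cells. The remaining Adamts genes, Adamts12, Adamts13, Adamts16, Adamts18 and Adamts19, had 0 to 15 reads in Rnf8-null and 0 to 11 in Rnf8-complemented cells.

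Adamts-like proteins carry the ancillary domains of Adamts enzymes without the proteinase. Adamtsl3 (chromosome 7, 82335694 to 82614450) was at 0.00959 RPKM (4 reads) in Rnf8-null and 6.22 RPKM (2202 reads) in Rnf8-complemented cells, 649-fold lower (253 to 2382). Adamtsl5 stood at 5.01 RPKM in Rnf8-null and 0.815 RPKM in Rnf8-complemented cells, a ratio of 6.15 (5.13 to 7.41), and Adamtsl4, a fibrillin-binding protein, at 8.40 RPKM in Rnf8-null and 11.0 RPKM in Rnf8-complemented cells. Adamtsl1 and Adamtsl2 had 2 and 1 reads in Rnf8-null and 2 and 3 in Rnf8-complemented cells. Of the 24 Adamts and Adamts-like genes 14 met the filter, of which 6 were higher, 3 lower and 5 within the 2-fold rule. These are 42.9% higher and 21.4% lower, beside 14.8% and 15.9% of all genes, and 4 of the 14 met the filter through 1 library alone. Of these 4, Adamtsl5 (higher) and Adamts3 (within the 2-fold rule) met it through the Rnf8-null library. Adamts2 and Adamtsl3 (both lower) met it through the Rnf8-complemented library. The direction of the 3 calls among them was set by the filter. Their summed level was 170 RPKM in Rnf8-null and 64.4 RPKM in Rnf8-complemented cells.

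Few Adam genes were expressed. Adam8 (chromosome 7, 139978932 to 139992562), an active surface proteinase known from leukocytes and invasive tumours, stood at 19.4 RPKM (3688 reads) in Rnf8-null and 0.372 RPKM (60 reads) in Rnf8-complemented cells, a ratio of 52.2 (40.4 to 68.5). Adam9, a widely expressed sheddase, stood at 44.6 RPKM in Rnf8-null and 36.9 RPKM in Rnf8-complemented cells, a ratio of 1.21 (1.18 to 1.25). Adam15, an integrin-binding Adam, stood at 21.7 RPKM in Rnf8-null and 43.2 RPKM in Rnf8-complemented cells, 1.99-fold lower (1.93 to 2.06), just within the 2-fold rule at a log2 difference of -0.96. Adam12 (meltrin alpha) was at 0.576 RPKM in Rnf8-null and 0.592 RPKM in Rnf8-complemented cells. Adam19, Adam28 and Adam33 had 1, 0 and 8 reads in Rnf8-null and 14, 1 and 2 in Rnf8-complemented cells.

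Of 21 Adam genes known mainly from testis and epididymis, 18 were under 1 RPKM in both libraries and 6 had 0 reads in both. Adam2 (fertilin beta, a sperm surface protein) was nevertheless read at 12.9 RPKM (1884 reads) in Rnf8-null and 9.99 RPKM (1239 reads) in Rnf8-complemented cells. Adam5 was at 5.70 RPKM (1021 reads) in Rnf8-null and 0.177 RPKM (27 reads) in Rnf8-complemented cells, a ratio of 32.1 (21.9 to 49.0). Adam1a, whose exons overlap those of Mapkapk5 and Tmem116, was at 0.791 RPKM in Rnf8-null and 1.69 RPKM in Rnf8-complemented cells, and it resembles Adam1b, so their separate values are uncertain. Their summed counts were 193 in Rnf8-null and 341 in Rnf8-complemented cells. The brain genes Adam11, Adam22 and Adam23, which are not active proteinases, had 9, 28 and 2 reads in Rnf8-null and 75, 262 and 13 in Rnf8-complemented cells.

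Of 15 listed genes whose products activate or induce these proteinases, 12 met the filter, of which 8 were higher, 1 lower and 3 within the 2-fold rule, beside 14.8% and 15.9% of all genes, with a median log2 difference of 2.45 (1.28 over all 15). Of the 12, 5 met the filter through 1 library alone, namely Pcsk6, St14, Prss8 and Tmprss4 through the Rnf8-null library and Hpse through the Rnf8-complemented library, so their direction was set by the filter. Plau, the urokinase that makes plasmin, stood at 175 RPKM in Rnf8-null and 2.74 RPKM in Rnf8-complemented cells, a ratio of 63.9 (57.2 to 71.6). The surface serine proteinase gene St14 (matriptase) stood at 68.2 RPKM in Rnf8-null and 0.0819 RPKM in Rnf8-complemented cells, and Prss8 (prostasin) had 1921 reads in Rnf8-null and 12 in Rnf8-complemented cells. The convertase gene Pcsk6 had 11071 reads in Rnf8-null and 4 in Rnf8-complemented cells. Furin, the convertase that activates the membrane-type Mmps, lay within the 2-fold rule at 51.7 RPKM in Rnf8-null and 56.1 RPKM in Rnf8-complemented cells, and the lower gene, Hpse, cuts heparan sulfate and not protein. St14 and Prss8 are epithelial genes, and the epithelial markers were higher in the same library.

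Other proteinase inhibitors went both ways, with 3 higher, 3 lower and 1 within the 2-fold rule of the 7 of 15 that met the filter (median log2 difference -0.67). The sign of that median turned when a mean of at least 5 RPKM was required (1.999). The shares of all genes were 14.8% higher and 15.9% lower, and 4 of the 7 (Spint1, Spint2, Serpine2 and Reck) met the filter through 1 library alone. Spint2 and Spint1, epithelial inhibitors of matriptase and related serine proteinases, stood at 324 and 71.9 RPKM in Rnf8-null and 0.617 and 0.0614 RPKM in Rnf8-complemented cells. Serpine2, an inhibitor of thrombin and urokinase, had 5642 reads in Rnf8-null and 6 in Rnf8-complemented cells. Reck, a membrane-anchored inhibitor of Mmps, had 6 reads in Rnf8-null and 576 in Rnf8-complemented cells (2.57 RPKM). Pcolce, which carries a Timp-like domain but enhances procollagen trimming, stood at 11.1 RPKM in Rnf8-null and 376 RPKM in Rnf8-complemented cells, 33.8-fold lower (31.7 to 36.0).

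Among 27 listed matrix substrates 14 met the filter, of which 11 were lower in Rnf8-null cells and 3 were higher, with a median log2 difference of -2.36 (-0.10 over all 27), beside 14.8% of all genes called higher and 15.9% called lower. Of the 14, 9 met the filter through 1 library alone, and 8 of the 11 lower genes (Col3a1, Col4a1, Col4a2, Col5a1, Hspg2, Bgn, Dcn and Vcan) did so through the Rnf8-complemented library, so their direction was set by the filter. Col3a1 was read at 0.0342 RPKM in Rnf8-null and 139.7 RPKM in Rnf8-complemented cells, and Hspg2, the heparan sulfate proteoglycan perlecan, at 0.0133 RPKM in Rnf8-null and 26.3 RPKM in Rnf8-complemented cells. Col5a1 and Col4a1, further collagen genes, had 20 and 23 reads in Rnf8-null and 23488 and 13619 in Rnf8-complemented cells. Vcan, the versican gene cut by the hyalectanases, had 86 reads in Rnf8-null and 3117 in Rnf8-complemented cells, and the aggrecan gene Acan had 3 in Rnf8-null and 13 in Rnf8-complemented cells. The Rnf8-null library, with more collagenase and hyalectanase reads, held fewer reads of these collagen and versican genes. Whether these RNA differences are linked was not tested. Of this list Col1a1, Col1a2, Col3a1, Dcn and Lum are also fibroblast markers.

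**Figure D4:**
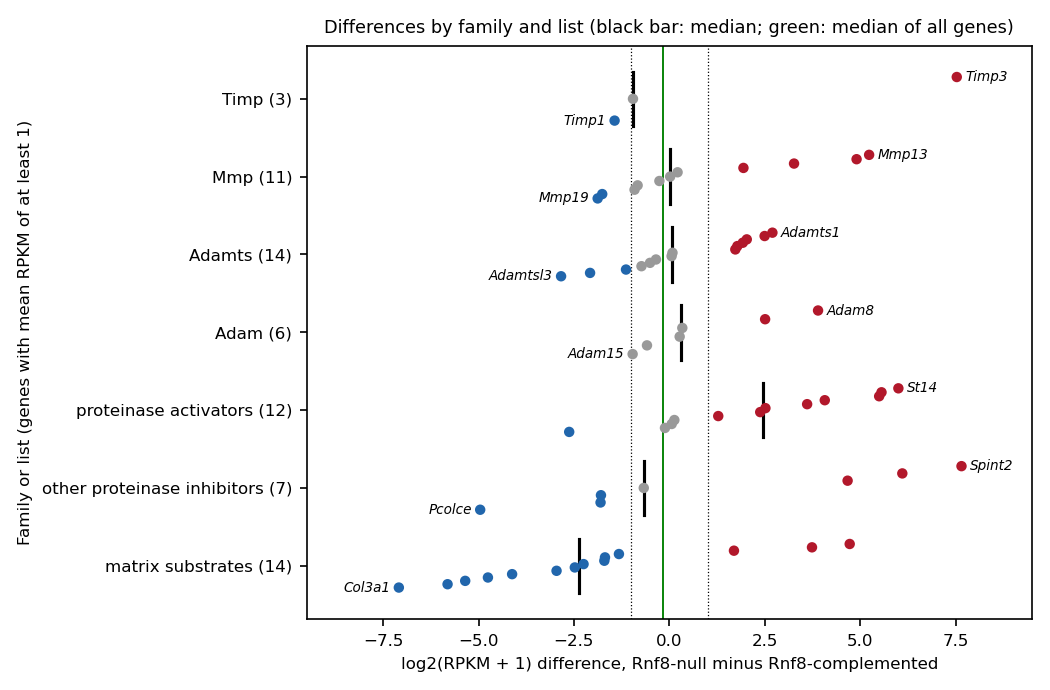
Log2(RPKM + 1) difference, Rnf8-null minus Rnf8-complemented, of each gene with a mean of at least 1 RPKM, by family and list, with red points at or above 1, blue points at or below -1, black bars for medians and a green line for the median of all genes (-0.17). The Mmp and Adamts points spread to both sides of the 2-fold lines around medians of 0.02 (1.74 where a mean of at least 5 RPKM is required) and 0.07 (then 1.85), and the activators lie mostly to the right and the matrix substrates mostly to the left.

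The 2-fold rule left several members close to its edge. Adam15, Timp2 and Mmp11 lay just within it at -0.96, -0.95 and -0.91, and Adamts6 just beyond it at -1.14. With scaling by TMM, which sets the bulk of genes equal, every ratio given here is multiplied by 1.17 and the median of all genes moves to 0.03. Adamts6 is then no longer called lower on the log2(RPKM + 1) scale, at an RPKM ratio of 0.430 in place of 0.367.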

How the data were processed

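RNA sequencing values of 82 proteinase and inhibitor genes were compared between 1 Rnf8-null and 1 Rnf8-complemented library. The table the authors deposited holds whole-number read counts, not normalized, and RPKM for each gene and library. In the 16983 genes with a read in both libraries, the deposited RPKM equalled the count divided by the column total and a whole-number gene length (within 1.35e-08 bases). DESeq2, bedtools, SAMtools 0.1.18 and STAR 2.4.0f1 appear in the submitters' processing notes without their roles, with GRCm38 as the build. Which tool counted, with which annotation and strand setting, is not given in the sources used here. Libraries were TruSeq libraries of total RNA, per the labels' protocols. Columns were matched by sample title.

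RPKM was kept as the unit and counts served for intervals. Totals were 57263401 reads for Rnf8-null and 48607808 for Rnf8-complemented cells, and for a gene at 0 reads the level of 3 reads is given. Exact Poisson and conditional binomial (Clopper-Pearson) 95% intervals came from SciPy 1.17.1, pandas 2.3.3 and Python 3.11.15, and TMM and upper-quartile scaling from edgeR 4.0.16. Without molecular identifiers, reads need not stand for separate molecules, so intervals and floors cover counting error only. The calls and intervals were tested on simulated counts that held counting error only. Calls were scored there for genes well above the filter, changed by far more than the 2-fold rule or not at all. Spread between cultures, low levels and differences near the rule were thus not covered for the calls. Named members are those with at least 1 RPKM in either library or in a named subgroup, and of each pathway list the 4 largest differences. Other genes of those lists (Furin, Hpse, Reck, Tmprss4, Vcan, Acan, Bgn, Dcn, Col4a2 and the markers) and overlapping genes were named after their values were seen. Some genes counted in a list are not reported here by name. Members and lists were chosen with earlier results of these data known. Positions and overlaps are from GENCODE vM21 (GRCm38), promoters from RefSeq (GRCm38.p6), with entries for 51 members. Alternatives were pseudocounts of 0.1 and 5 RPKM, no filter, a mean of at least 5 RPKM, both scalings and, chosen after seeing the data, leaving out members with overlapping exons.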

Additional observations from a re-analysis of the deposited data

How the results depend on the processing

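No alternative turned a member from higher to lower or the reverse, among those that met the filter under both settings. The 13 higher and 6 lower members became 13 and 7 with a pseudocount of 0.1 RPKM, 11 and 3 with 5 RPKM, 14 and 6 with no filter, 9 and 1 with a mean of at least 5 RPKM, 13 and 5 with TMM, 13 and 6 with upper-quartile scaling, and 9 and 5 without the 19 members whose exons overlap another gene. The shares of all genes, 14.8% higher and 15.9% lower, moved too. They were 16.3% and 19.4% with 0.1 RPKM, 9.66% and 8.05% with 5 RPKM, and 8.57% and 9.13% with no filter. With a mean of at least 5 RPKM they were 13.9% and 14.1%, with TMM 17.3% and 12.3%, and with upper-quartile scaling 15.9% and 13.8%. With a pseudocount of 5 RPKM the calls of Adamts2, Adamts6, Mmp9, Adamtsl5 and Mmp1b were lost, and with a mean of at least 5 RPKM only 19 members were left. The members' median, 0.07, was 0.34 with a mean of at least 5 RPKM and 0.24 without overlapping exons, and 0.19 with TMM. The Mmp median, 0.02, was 1.74 with the stricter filter and without overlapping exons and 0.17 with TMM, and the Adamts median, 0.07, was 1.85 with a mean of at least 5 RPKM. The Adam median, 0.30, was -0.0125 with no filter, 0.52 with TMM and 0.41 with upper-quartile scaling. The Timp median, -0.95, was -0.49 with no filter, -0.73 with TMM, -0.84 with upper-quartile scaling and -1.20 without overlapping exons. The activator median, 2.45, was 2.61 and 1.80 with pseudocounts of 0.1 and 5 RPKM, 1.28 with no filter, 3.06 with a mean of at least 5 RPKM and 2.65 with TMM. The inhibitor median, -0.67, was -0.59 with a pseudocount of 5 RPKM, -0.0141 with no filter, 1.999 with a mean of at least 5 RPKM, -0.45 with TMM and -0.56 with upper-quartile scaling. The substrate median, -2.36, was -3.77 and -1.32 with pseudocounts of 0.1 and 5 RPKM, -0.10 with no filter, -3.54 with a mean of at least 5 RPKM and -2.26 with TMM. The Adam median thus changed sign with no filter, as did the members' median (-0.0004), and the inhibitor median changed sign with the stricter filter. Of 35 ratios of named members, 0 crossed 1 with TMM and 0 with upper-quartile scaling, which multiplies ratios by 1.08. Fewer genes enter under the stricter filter and more, mostly near 0, with none. Otherwise the cause was not tested. Depth limits the members with at most 3 reads in both libraries, for which a difference was not detectable. No replicate could be left out and no paired analysis was possible because each group had 1 library.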
